A study of Homo sapiens with 27 samples.

Results

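The USB1 knockout effect under PARN knockdown was measured in K562, an established leukaemia cell line, as the difference between 3 USB1 KO_shPARN libraries and 3 Control_shPARN libraries of small RNA. USB1 KO_shPARN cells lack USB1 after CRISPR-Cas9 editing and carry a short hairpin RNA against PARN. Control_shPARN cells carry the same hairpin label without the USB1 knockout, so both groups share the PARN knockdown. These 6 of the 27 libraries of the series were chosen by their labels, and the members are the 1208 mature miRNAs listed in both deposited tables, of 2276 listed anywhere in the series. A further 6 K562 libraries without a hairpin, 3 USB1 KO and 3 Control, entered the same fit. The methods describe USB1 knockout K562 as clones grown from single cells, and they do not say how many clones the libraries represent or how the PARN hairpin was introduced. None of the groups is labelled with a control hairpin. USB1 and PARN mRNA are not seen by small RNA sequencing, so the knockout and the knockdown were not checked here.

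A miRNA is cut from a hairpin precursor, and 1 arm of the hairpin, the guide, is usually kept in the silencing complex while the other, the passenger, is lost. Poly(A) polymerases can add adenosines to the 3′ end of a miRNA, and PARN is a 3′ exonuclease that removes such adenosines. USB1 is another 3′ exonuclease, best known for trimming the U6 spliceosomal RNA, and its loss causes poikiloderma with neutropenia, a bone marrow failure syndrome. The comparison asks how the miRNA profile of these blood-derived cells changes when USB1 is lost on a background in which PARN is already reduced.

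The sequences below, from RefSeq on GRCh38, are those of the miRNAs on which the results turn, with the seed (bases 2 to 8, which pair with targets) in capitals. The first set fell in USB1 KO_shPARN cells.
miR-452-5p: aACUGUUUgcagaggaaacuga
miR-452-3p: cUCAUCUGcaaagaaguaagug
miR-224-5p: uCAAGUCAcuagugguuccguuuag
miR-450b-5p: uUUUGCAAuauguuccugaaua
miR-450a-5p: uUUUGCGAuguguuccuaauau
miR-135b-5p: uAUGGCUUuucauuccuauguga
miR-139-5p: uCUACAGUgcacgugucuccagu
miR-628-3p: uCUAGUAAgaguggcagucga
miR-223-3p: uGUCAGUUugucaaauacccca

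The second set rose, apart from miR-181d-5p, which is shown because it shares its seed with miR-181a-5p and miR-181b-5p and fell.
miR-218-5p: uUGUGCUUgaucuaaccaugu
miR-9-5p: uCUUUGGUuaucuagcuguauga
miR-9-3p: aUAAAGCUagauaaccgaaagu
miR-3158-3p: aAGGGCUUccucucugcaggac
miR-147b-3p: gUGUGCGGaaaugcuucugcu
miR-145-3p: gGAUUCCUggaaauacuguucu
miR-1257: aGUGAAUGauggguucugacc
miR-551a: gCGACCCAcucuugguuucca
miR-4485-3p: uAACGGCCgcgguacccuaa
miR-181a-5p: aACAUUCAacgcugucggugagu
miR-181b-5p: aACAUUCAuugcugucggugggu
miR-181d-5p: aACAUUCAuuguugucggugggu

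The 6 libraries held 7670562 to 9740475 miRNA counts in USB1 KO_shPARN and 9727049 to 13183152 in Control_shPARN, of which the 10 most abundant miRNAs took 76.9 to 79.2%. The hairpin-free libraries held 1530929 to 10556927 counts, the smallest being USB1 KO library 3. Erythroid and myeloid miRNAs were present in all 6 libraries, with miR-486-5p at 4779 CPM or more, miR-451a at 267 CPM or more and miR-223-3p at 379 CPM or more (TMM-scaled CPM, the level used throughout). USB1 KO_shPARN library 1 stood apart. In it 15 miRNAs were over 4-fold above both other libraries of its group (with 1 CPM added), against 0 to 2 in each of the other 5 libraries, and none of the 15 was called by edgeR, while 11 had an unadjusted p under 0.05 and DESeq2 called 8. They included miR-143-3p, typical of mesenchymal cells, at 13711, 1126 and 249 CPM in the USB1 KO_shPARN libraries and 365, 179 and 292 CPM in the Control_shPARN libraries. The liver miRNA miR-122-5p stood at 509, 28.4 and 7.08 CPM, against 10.002, 6.33 and 5.83 CPM. The log2 difference of miR-143-3p was 4.17 with library 1 and 1.25 without it, and that of miR-122-5p was 4.61 and 1.22. In bulk RNA, more cells of another type and more of a miRNA per cell cannot be told apart. Where leaving out this library ended a call, moved a called value by over 1.5-fold or turned the sign of a list's median, the value without it is given beside the result.

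Of the 1208 members, 883 had enough counts for a fit, 881 of them in the fit of all 12 K562 libraries used below and 2 in a fit of the 6 libraries alone, while 325 were too low for either. Calls are miRNAs with an adjusted p under 0.05 (edgeR's quasi-likelihood test, adjusted by Benjamini-Hochberg over the 881), and changes are log2 values of USB1 KO_shPARN over Control_shPARN with their standard error (SE). No label says that the 3 libraries of a group are separate cultures, so the p-values measure the spread between libraries, which may be technical. The paper's captions give 3 biological replicates for miRNA data of wild-type and USB1 knockout K562 cells. They do not describe the PARN knockdown groups. In USB1 KO_shPARN cells 44 miRNAs were called higher (4.99%) and 37 lower (4.2%), 81 in all or 9.19% of those tested. The median change over all 881 was 0.02, and the median absolute change of the calls was 1.16, or a little over a doubling. The libraries of the groups did not overlap for 80 of the 81 calls and for 269 of all 881 (30.5%), with USB1 KO_shPARN above for 16.5% and below for 14.1%. A fit of only the 6 libraries called 22 of 766 higher (2.87%) and 27 lower (3.52%), together 49 (6.4%), of which 47 were among the 81. Without USB1 KO_shPARN library 1 the calls were 22 higher and 23 lower, and without Control_shPARN library 2 they were 16 higher and 22 lower. Of the 81 calls 33 held without any 1 of the 6 libraries, and the text says of each call it describes whether it is among them.

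**Figure D1:**
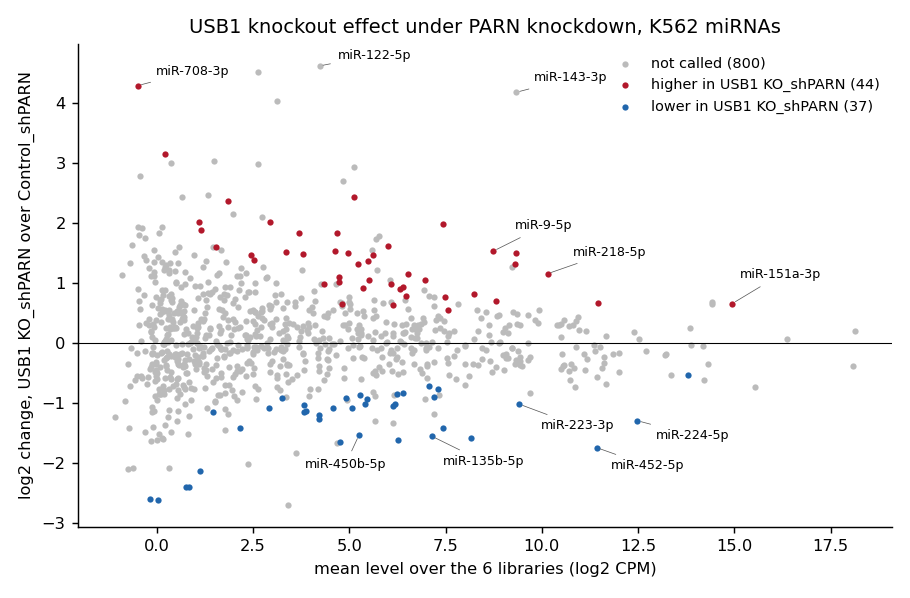
Each point is 1 of 881 miRNAs, with its mean level over the 6 libraries (log2 CPM) on the horizontal axis and its log2 change, USB1 KO_shPARN over Control_shPARN, on the vertical axis. The 44 red and 37 blue calls lie on both sides of 0, and miR-143-3p and miR-122-5p, high in 1 library, are uncalled at changes of 4.17 and 4.61.

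Of the calls whose mean log2 CPM reached 3, the largest fall was that of miR-452-5p on the X chromosome, and neighbouring miRNAs fell as well. miR-452 and miR-224 are made from hairpins at chrX:151958578-151959712 (GRCh38) within GABRE, the gene of a GABA receptor subunit. miR-452-5p stood at 1504, 1866 and 1185 CPM in USB1 KO_shPARN, against 5943, 5184 and 4147 CPM in Control_shPARN, a change of -1.75 (SE 0.26, edgeR adjusted p = 0.00145). Its opposite arm miR-452-3p stood at 146, 206 and 148 CPM, against 556, 520.4 and 425 CPM (-1.59, SE 0.21, adjusted p = 0.000822). miR-224-5p, the most abundant of the locus, stood at 4012, 4159.9 and 2873 CPM, against 10176, 8069 and 8916 CPM (-1.30, SE 0.30, adjusted p = 0.0174). All USB1 KO_shPARN libraries lay below all Control_shPARN libraries for these 3, and each call held without any 1 of the 6 libraries. The passenger miR-224-3p was not called (-0.95, adjusted p = 0.0528).

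A second group of falls on the X chromosome lay in the cluster of miR-424, miR-503, miR-450 and miR-542, whose sequenced members span chrX:134540185-134546711. miR-424 is known for its part in monocyte differentiation. miR-450b-5p stood at 25.2, 20.6 and 20.99 CPM in USB1 KO_shPARN, against 59.0, 61.0 and 74.5 CPM in Control_shPARN (-1.54, SE 0.20, edgeR adjusted p = 0.000822). miR-450a-5p stood at 13.5, 11.6 and 11.6 CPM, against 27.2, 26.7 and 30.3 CPM (-1.20, SE 0.21, adjusted p = 0.00338). miR-542-3p (-1.14, adjusted p = 0.0101) and miR-424-5p (-1.41, adjusted p = 0.0107) fell as well, the last at only 18 to 28 counts a library in USB1 KO_shPARN and 46 to 89 in Control_shPARN. These 4 calls held without any 1 of the 6 libraries. miR-424-3p, outside the naming rule (-1.03, adjusted p = 0.0334), lost its call without any 1 of 4 libraries, the 3 USB1 KO_shPARN libraries (adjusted p = 0.0647, 0.0747 and 0.0584 without libraries 1, 2 and 3) and Control_shPARN library 3 (0.126). miR-503-5p was not called (-0.62, adjusted p = 0.133).

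Other falls were spread over single hairpins. miR-135b-5p, from an intron of BLACAT1 at chr1:205448302-205448398, stood at 77.8, 99.99 and 72.6 CPM in USB1 KO_shPARN, against 311, 225 and 200.2 CPM in Control_shPARN (-1.56, SE 0.21, edgeR adjusted p = 0.000822). miR-139-5p, from an intron of PDE2A at chr11:72615063-72615130, stood at 32.9, 59.6 and 44.6 CPM, against 129, 197 and 92.6 CPM (-1.61, SE 0.28, adjusted p = 0.00338). miR-628-3p, from within CCPG1 at chr15:55372940-55373034, stood at 11.2, 12.7 and 11.7 CPM, against 23.6, 34.2 and 28.5 CPM (-1.28, SE 0.21, adjusted p = 0.00237). The groups did not overlap for these 3, and their calls held without any 1 of the 6 libraries. miR-1908-5p also fell (-1.65, SE 0.39, adjusted p = 0.0196), but not without USB1 KO_shPARN library 2 (adjusted p = 0.0545) or Control_shPARN library 2 (0.0656). miR-199b-5p, at 86.8, 145 and 94.3 CPM in USB1 KO_shPARN and 251, 349 and 268 CPM in Control_shPARN, fell by 1.41 (adjusted p = 0.0237), and lost its call without USB1 KO_shPARN library 1 (0.0669) or 3 (0.0634) or Control_shPARN library 2 (0.0656).

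The study followed 5 miRNAs of blood formation, of which 1 was called here by edgeR, miR-223-3p, while 4 had an unadjusted p under 0.05 and DESeq2 called 3. miR-223-3p is a regulator of granulocyte formation. It stood at 379, 457 and 620.1 CPM in USB1 KO_shPARN, against 895, 1155 and 909 CPM in Control_shPARN, a change of -1.02 (SE 0.21, edgeR adjusted p = 0.00966) that held without any 1 of the 6 libraries. miR-199a-3p (-0.82, adjusted p = 0.0837) and miR-125a-5p (-0.49, adjusted p = 0.125) were below Control_shPARN in every library and were not called. The sequence of miR-199a-3p is also that of miR-199b-3p, likewise not called (-0.89, adjusted p = 0.052), so the 2 names are 1 observation. miR-142-5p overlapped between groups (-0.08, adjusted p = 0.806). miR-125b-5p stood at 35.7, 7.20 and 5.28 CPM in USB1 KO_shPARN and 4.32, 2.76 and 4.15 CPM in Control_shPARN, a difference of 2.10 (adjusted p = 0.0984) that was 0.69 without USB1 KO_shPARN library 1. The sources used here do not say on which libraries these 5 were chosen, so their directions are not given as independent evidence. Their 6 opposite strands gave 0 calls by edgeR and by DESeq2, with 1 at an unadjusted p under 0.05. Among them was miR-223-5p at 796, 744 and 364 CPM in USB1 KO_shPARN and 1286, 1034 and 1069 CPM in Control_shPARN (-0.83, adjusted p = 0.203).

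The miRNA with the smallest p-value among those that rose was miR-218-5p, known from motor neurons and named here after its values were seen. Its hairpins lie in introns of the axon guidance genes SLIT2 (chr4:20528275-20528384) and SLIT3 (chr5:168768146-168768255). It stood at 1450.1, 1856 and 1809 CPM in USB1 KO_shPARN, against 757, 860.0 and 686 CPM in Control_shPARN (1.15, SE 0.15, edgeR adjusted p = 0.000822). Both arms of miR-9, a miRNA of neural progenitors with hairpins on chromosomes 1, 5 and 15, rose to a like extent. miR-9-5p stood at 745, 685 and 755 CPM, against 236, 247 and 275 CPM (1.53, SE 0.22, adjusted p = 0.00126), and miR-9-3p at 44.1, 54.3 and 59.0 CPM, against 16.2, 22.9 and 16.7 CPM (1.497, SE 0.25, adjusted p = 0.00307). The groups did not overlap for these 3 and their calls held without any 1 of the 6 libraries. The counts do not say from which hairpin a mature miRNA with several copies came.

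**Figure D2:**
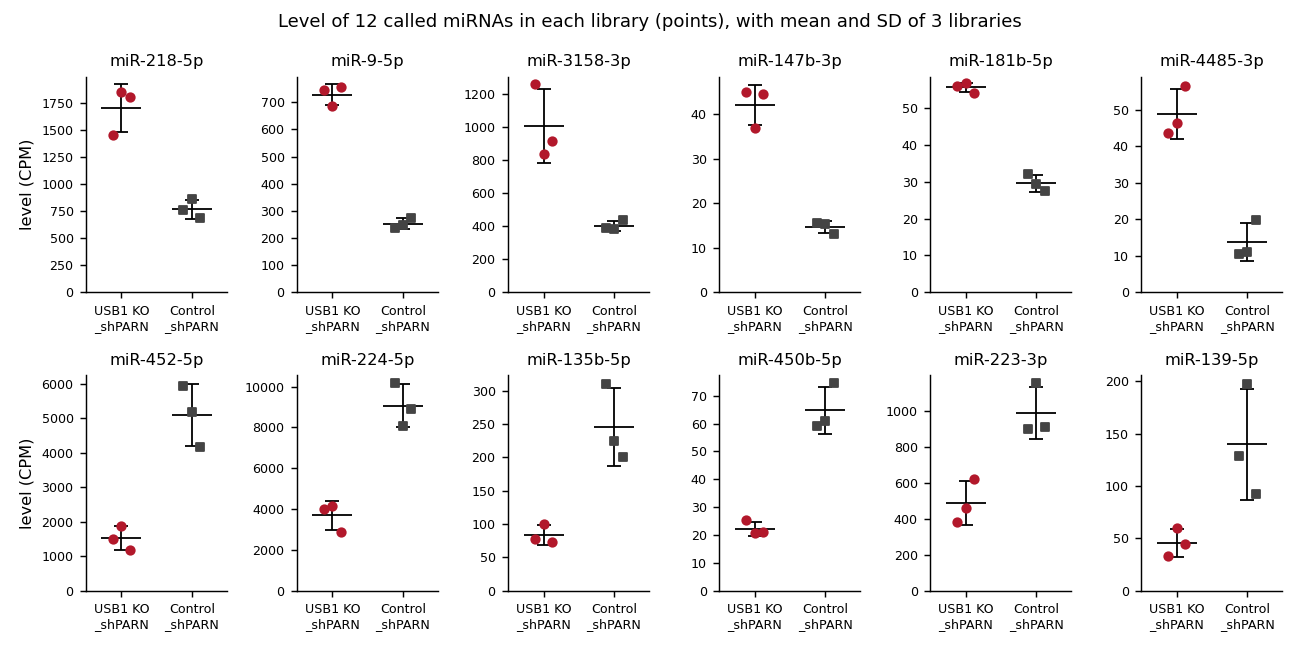
Points are the level (CPM) of 12 called miRNAs in each of the 3 USB1 KO_shPARN (left in each panel) and 3 Control_shPARN libraries, with the mean (bar) and SD (whiskers), on axes that start at 0. The upper row rose and the lower row fell in USB1 KO_shPARN, for example miR-9-5p at 685 to 755 CPM against 236 to 275 CPM and miR-135b-5p at 72.6 to 99.99 CPM against 200.2 to 311 CPM.

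Further rises came from miRNAs at separate places in the genome. miR-147b-3p is encoded within C15orf48, an interferon- and inflammation-responsive gene, at chr15:45433050-45433129. It stood at 44.9, 36.9 and 44.4 CPM in USB1 KO_shPARN, against 15.6, 15.3 and 13.002 CPM in Control_shPARN (1.52, SE 0.22, edgeR adjusted p = 0.00126). miR-145-3p, outside the naming rule, stood at 66.6, 62.8 and 48.4 CPM, against 26.6, 18.8 and 26.5 CPM (1.31, SE 0.23, adjusted p = 0.0034), while its more abundant arm miR-145-5p was not called (0.78, adjusted p = 0.0528, and 0.0447 with the replicate number as a block). miR-1257 stood at 168, 103 and 76.9 CPM, against 51.3, 25.7 and 37.3 CPM (1.61, SE 0.30, adjusted p = 0.0059). miR-551a, from an intron of MEGF6, stood at 26.4, 19.2 and 23.6 CPM, against 8.48, 7.66 and 8.63 CPM (1.48, SE 0.28, adjusted p = 0.00645). The groups did not overlap for these 4 rising miRNAs, and the calls held without any 1 of the 6 libraries.

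miR-3681-5p rose by 1.98 (SE 0.39, edgeR adjusted p = 0.0107), with 597, 385 and 134 CPM in USB1 KO_shPARN and 108, 93.2 and 82.6 CPM in Control_shPARN, and lost its call without Control_shPARN library 2 (adjusted p = 0.0574). miR-1293 rose by 1.46 and lost its call without the same library (0.0589). miR-573, miR-202-5p and miR-4521, with changes of 1.51, 1.84 and 1.502 and adjusted p of 0.0263, 0.0375 and 0.0485, kept their calls without only 1 or 2 of the 6 libraries. The change of miR-202-5p was 2.66 without Control_shPARN library 3. For miR-573, miR-202-5p and miR-4521, the adjusted p were 0.140, 0.177 and 0.180 without Control_shPARN library 2. Without USB1 KO_shPARN library 1 they were 0.0942, 0.0942 and 0.159. Of these, miR-202-5p is known from the gonads.

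The miR-181 family, known from lymphocyte development, moved in both directions. miR-181a-5p stood at 45.0, 32.4 and 35.5 CPM in USB1 KO_shPARN, against 21.2, 19.3 and 15.6 CPM in Control_shPARN (1.01, SE 0.21, edgeR adjusted p = 0.0107), and lost its call without USB1 KO_shPARN library 1 (0.0568) or Control_shPARN library 2 (0.0574). miR-181b-5p stood at 55.9, 56.8 and 54.2 CPM, against 32.04, 29.4 and 27.5 CPM (0.91, SE 0.16, adjusted p = 0.0034), and its call held without any 1 of the 6 libraries. One pair of hairpins for these 2 lies at chr1:198858873-198859153 in an intron of MIR181A1HG. miR-181d-5p, from chr19:13874875-13875011, stood at 5.31, 5.74 and 4.12 CPM, against 12.4, 10.9 and 8.97 CPM (-1.09, SE 0.24, adjusted p = 0.014), and held likewise. Since miR-181b-5p and miR-181d-5p differ by no more than 2 bases, reads with an error could count for the other member.

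Some rising calls share reads with other RNAs. The 20 bases of miR-4485-3p are contained in MT-RNR2, the mitochondrial 16S ribosomal RNA. It stood at 43.5, 46.3 and 56.5 CPM in USB1 KO_shPARN, against 10.4, 11.1 and 19.7 CPM in Control_shPARN (1.83, SE 0.32, edgeR adjusted p = 0.00338), and the counts cannot tell the miRNA from a fragment of that rRNA. miR-3158-3p stood at 1258, 835 and 917 CPM, against 389, 383 and 437 CPM (1.32, SE 0.19, adjusted p = 0.00134), and both calls held without any 1 of the 6 libraries. miR-3158-5p (2.43, SE 0.55, adjusted p = 0.0199, and 1.29 without USB1 KO_shPARN library 3) is over 20 bases the reverse complement of miR-3158-3p. The 3p arm outnumbered it 21.1- to 26.7-fold in 5 of the 6 libraries and 4.75-fold in USB1 KO_shPARN library 3, where miR-3158-5p stood at 193 CPM against 50.6 and 34.8 CPM in the other 2. Its call was lost without any 1 Control_shPARN library (adjusted p = 0.0923, 0.0986 and 0.0552 without libraries 1, 2 and 3).

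The counting did not separate strands. Among the tested miRNAs, 50 pairs share a run of at least 18 bases with the reverse complement of the partner, and 7 pairs are full reverse complements. miR-7-5p and miR-3529-3p are 1 such pair among the 10 most abundant miRNAs, and their sequences are shown for that.
miR-7-5p: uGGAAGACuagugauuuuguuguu
miR-3529-3p: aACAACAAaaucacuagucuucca
miR-642a-3p: aGACACAUuuggagagggaacc
miR-642b-5p: gGUUCCCUcuccaaaugugucu

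In each of the 6 libraries miR-7-5p and miR-3529-3p had nearly the same level, with ratios of 0.954 to 1.02. Over the 5 full pairs above 10 CPM the ratios ran between 0.952 and 1.23. The fall of miR-642a-3p, at 29.4, 36.1 and 30.4 CPM in USB1 KO_shPARN against 50.3, 66.4 and 66.7 CPM in Control_shPARN (-0.93, SE 0.18, edgeR adjusted p = 0.00814), and that of miR-642b-5p, outside the naming rule (-0.87, SE 0.20, adjusted p = 0.0174) are therefore 1 observation rather than 2. Both held without any 1 of the 6 libraries. Of the 73 calls with a sequence, 8 belong to such a pair and 15 have another miRNA within 2 edits, 20 in all, and their assignment is uncertain.

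Most of the abundant miRNAs were not called. miR-148a-3p, the most abundant, stood at 315690.0, 309806 and 312777 CPM in USB1 KO_shPARN and 208562, 299832 and 309592 CPM in Control_shPARN (0.20, edgeR adjusted p = 0.539). miR-21-5p differed by -0.38 (adjusted p = 0.257), miR-92a-3p by 0.07 (0.782), miR-126-3p by -0.61 (0.312), miR-20a-5p by -0.35 (0.18) and miR-378a-3p by -0.05 (0.841). miR-146b-5p was below Control_shPARN in every library, with 31300.5, 45020.1 and 34472 CPM against 65881, 59842 and 58156 CPM (-0.73, adjusted p = 0.0587, and 0.0367 with the replicate number as a block). The 1 call among the 10 most abundant was miR-151a-3p, at 42430.4, 33926 and 42901 CPM in USB1 KO_shPARN, against 24880.1, 23907 and 27005 CPM in Control_shPARN (0.65, SE 0.15, adjusted p = 0.0173). That call was lost without USB1 KO_shPARN library 1 (0.0836) or 3 (0.0517) or Control_shPARN library 1 (0.0733) or 2 (0.102).

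The remaining members are described by family and cluster, with counts of calls beside the 9.19% over all miRNAs and medians beside the 0.02 over all miRNAs. The tumour suppressor let-7 family gave 0 calls by edgeR of 9 (median -0.24), the related miR-99, miR-10, miR-125 and miR-100 genes 0 of 7 (0.65), the miR-23/27/24 clusters 0 of 5 (-0.29), the miR-29 family 0 of 3 (-0.11), the miR-30 family 0 of 5 (-0.24), the miR-148 and miR-152 family 0 of 3 (0.16) and the cluster of miR-183, miR-96 and miR-182 0 of 3 (-0.68). At an unadjusted p under 0.05 these 7 lists had 3, 4, 0, 0, 1, 0 and 3 members, and DESeq2 called 0, 3, 0, 0, 1, 0 and 1, in the same order. miR-100-5p, miR-10b-5p (both named after their values were seen) and miR-125b-5p were among the 15 miRNAs high in USB1 KO_shPARN library 1, and without that library the median of the miR-99, miR-10, miR-125 and miR-100 genes was 0.20. The median of the miR-148 and miR-152 family was -0.06 without it, and close to 0 without Control_shPARN library 1. The miR-15/16 family had 1 lower of 7, miR-424-5p (median -0.17). miR-17/92 and its paralogs, oncogenic miRNAs abundant in K562, had 1 lower of 13, miR-17-5p, at 10808, 12376 and 12310.1 CPM in USB1 KO_shPARN against 18368, 18832 and 14297 CPM in Control_shPARN (-0.54, SE 0.15, edgeR adjusted p = 0.041, list median -0.20). The family of miR-130, miR-301 and miR-454 had 1 lower of 4, miR-301b-3p (-1.03, adjusted p = 0.0136, list median -0.58), and all 4 members had negative values. The call of miR-301b-3p held without any 1 of the 6 libraries. The neighbouring hairpins of miR-221 and miR-222 had 1 higher of 4, the low passenger miR-222-5p (1.87, adjusted p = 0.0449, list median 0.45). Same-numbered libraries of the 2 groups deviated together, and with the replicate number as a block miR-222-5p was not called (adjusted p = 0.0558), while all 3 members of the cluster of miR-183, miR-96 and miR-182 were called lower, miR-183-5p (0.0122), miR-182-5p (0.03) and miR-96-5p (0.0485). Without 1 library, miR-17-5p lost its call for USB1 KO_shPARN libraries 1 (0.0798) and 2 (0.0547) and Control_shPARN libraries 1 (0.0859) and 2 (0.0884), and miR-222-5p for any but USB1 KO_shPARN library 3 (0.0667 to 0.217). The change of miR-222-5p was 1.20 without USB1 KO_shPARN library 1.

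Lists by function gave few calls. Erythroid and megakaryocytic miRNAs had 1 lower of 13 and blood lineage markers 1 lower and 1 higher of 14, miR-223-3p in both and miR-181a-5p in the second, with medians of 0.17 and -0.09. The first of these was -0.19 without USB1 KO_shPARN library 1 and -0.08 without library 3. Drosha-independent miR-320 and miR-484 had 1 higher of 6, miR-320b (0.62, edgeR adjusted p = 0.043, list median 0.44). In this list 5 members had positive values and 1 negative, the abundant miR-320a-3p (mean 2318 CPM, -0.27, adjusted p = 0.416). Summed levels of the list were 2634 to 2953 CPM in USB1 KO_shPARN and 3009 to 3250 CPM in Control_shPARN. Mirtrons, which are cut out by splicing, had 1 lower of 6, miR-1226-3p (-0.91, adjusted p = 0.0278, list median -0.02, with 0.06 under library totals as the only scaling and 0.05 without Control_shPARN library 2). Of 7 miRNAs described as targeting p53, 1 was higher, miR-1285-3p (0.78, adjusted p = 0.0107, list median -0.09, with 0.18 without USB1 KO_shPARN library 1 and 0.04 without Control_shPARN library 3). Of 5 miRNAs induced by p53, 2 were higher (list median 0.78, and 0.46 without USB1 KO_shPARN library 1). Those 2, whose hairpins lie side by side in MIR194-2HG on chromosome 11 (miR-194 has another copy on chromosome 1), were miR-192-5p, at 4331, 3201 and 3239 CPM in USB1 KO_shPARN against 1984, 2159.8 and 2679 CPM in Control_shPARN (0.66, SE 0.18, adjusted p = 0.0384), and miR-194-5p, at 179, 73.6 and 105 CPM against 59.9, 58.2 and 69.7 CPM (0.93, SE 0.25, adjusted p = 0.033). miR-192-5p is also a liver and gut miRNA and was highest in USB1 KO_shPARN library 1. Without that library the changes were 0.46 for miR-192-5p (adjusted p = 0.164) and 0.48 for miR-194-5p (0.169), and the adjusted p without Control_shPARN library 1 were 0.140 and 0.115 and without library 2 both 0.156. For miR-194-5p the p was 0.0521 without Control_shPARN library 3. miR-320b lost its call without any 1 library but USB1 KO_shPARN library 2 (adjusted p = 0.0626 to 0.177). miR-1226-3p lost it without USB1 KO_shPARN library 1 (0.0669) or Control_shPARN library 1 (0.0682) or 2 (0.0986). miR-1285-3p lost it without USB1 KO_shPARN library 1 (0.0632) or Control_shPARN library 2 (0.0741). With the replicate number as a block, the adjusted p of miR-320b was 0.0518.

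**Figure D3:**
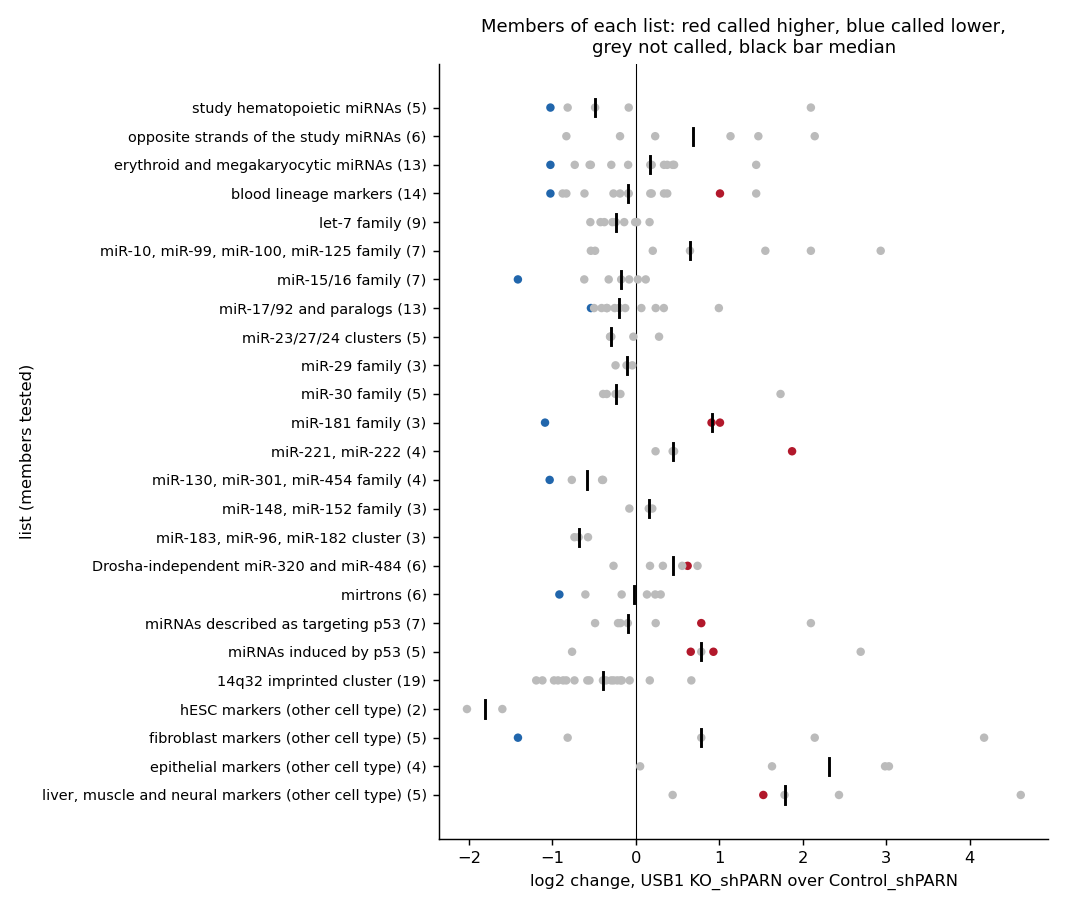
Each row is 1 of 25 lists with the number of its members tested, each point is the log2 change of a member (USB1 KO_shPARN over Control_shPARN), and the black bar is the median. Points called higher are red, points called lower are blue and the rest are grey, and the epithelial list has a median of 2.31 with 0 calls, which is 0.63 without USB1 KO_shPARN library 1.

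Several markers of other cell types were highest in USB1 KO_shPARN library 1, while miR-9-5p and miR-199b-5p were not. Of 9 hESC markers 2 could be tested, miR-372-3p and miR-373-3p, with 0 calls by edgeR (2 at an unadjusted p under 0.05, and 1, miR-372-3p, called by DESeq2 and, at an adjusted p of 0.00554, with the replicate number as a block), a median of -1.81 and summed levels of 1.29 to 4.39 CPM in USB1 KO_shPARN and 7.51 to 20.9 CPM in Control_shPARN. Of 6 fibroblast markers 5 were tested, with a median of 0.78, summed levels of 515 to 14126 CPM in USB1 KO_shPARN and 721 to 775 CPM in Control_shPARN, and 1 lower call, miR-199b-5p (4 at an unadjusted p under 0.05, and 4 called by DESeq2). Without library 1 the fibroblast median was -0.56. Of 6 epithelial markers 4 were tested, with 0 calls by edgeR (1 at an unadjusted p under 0.05, and 1 called by DESeq2), a median of 2.31 and sums of 46.1 to 164 CPM, against 47.5 to 57.1 CPM. Without library 1 the epithelial median was 0.63, with miR-200a-3p at 0.70, miR-200b-3p at 0.55 and miR-200c-3p at -0.20, and the USB1 KO_shPARN sums were 46.1 and 57.3 CPM. Of 6 liver, muscle and neural markers 5 were tested, with a median of 1.78, sums of 789 to 1493 CPM, against 277 to 325 CPM, and 1 higher call, miR-9-5p (3 at an unadjusted p under 0.05, and 2 called by DESeq2). Without library 1 that median was 0.84, with miR-122-5p at 1.22, miR-1-3p at 0.84 and miR-133a-3p at 0.12. Their part in the calls was not tested. Without library 1 the change of miR-9-5p was 1.47 (edgeR adjusted p = 0.00342).

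The 2 arms of a hairpin arise from 1 precursor, and both were tested for 199 hairpins, taking the arm with the higher mean level as the guide. Guides were called higher for 8 and lower for 18 (13.1% of 199), and passengers higher for 5 and lower for 8 (6.53%), at median levels of 87.6 and 5.83 CPM. The names go by level alone. By them miR-223-3p, which the study followed, counts as a passenger called lower, at 736 CPM against 882 CPM for miR-223-5p. So do miR-424-5p and miR-301b-3p. The median change was -0.04 for guides and 0.04 for passengers. Both arms were called for 6 hairpins, miR-9 and miR-3158 higher and miR-452, miR-424, miR-628 and miR-642a lower, always in 1 direction. For miR-9 and miR-452 both calls held without any 1 of the 6 libraries. miR-628-5p lost its call without USB1 KO_shPARN library 1 (edgeR adjusted p = 0.109) or 2 (0.0919) or Control_shPARN library 2 (0.0895) or 3 (0.107). miR-642a-5p lost it without any 1 library but USB1 KO_shPARN library 3 (0.0521 to 0.0736, and 0.0724 without library 1 of that group). The losses of miR-3158-5p and miR-424-3p are given above. Among the 33 hairpins with at least 1 call the arms had the same sign for 27 (81.8%), and among all 199 for 126 (63.3%). Leaving out 23 hairpins with an arm that is partly the reverse complement of another tested miRNA, both arms were called for 4 of 176, in 1 direction each. For miR-151a the guide rose by 0.65 and miR-151a-5p, the passenger by level here, had -0.11 (adjusted p = 0.824), and the difference between the arms was not tested.

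**Figure D4:**
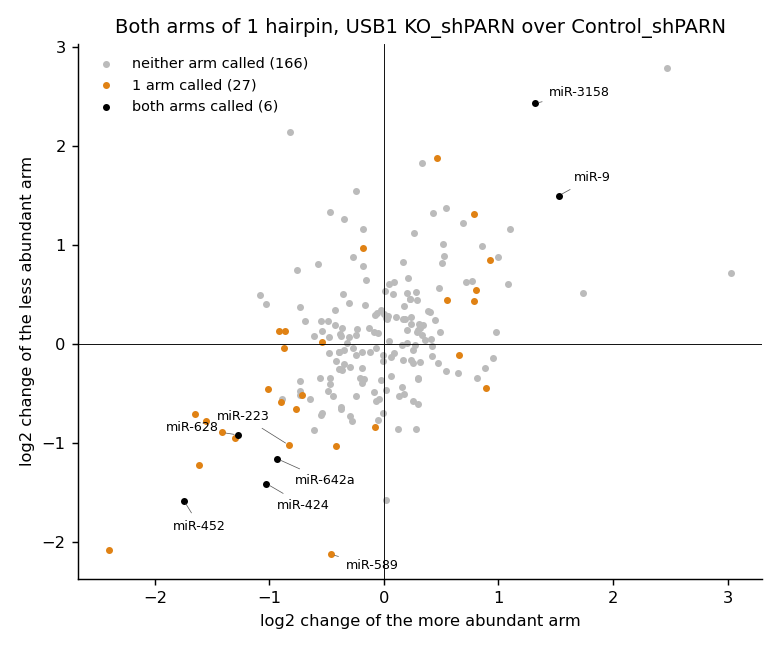
Each point is 1 of 199 hairpins, with the log2 change of its more abundant arm on the horizontal axis and of its less abundant arm on the vertical axis. The 6 hairpins with both arms called (black) lie in the lower left or upper right, and 27 have 1 arm called (orange).

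Features of the mature sequence were compared over the 777 tested miRNAs with a RefSeq sequence, as a description. By last genome-encoded base, 11 of 157 miRNAs ending in A were called lower (7.01%) and 9 higher (5.73%), and of 232 ending in U 6 were lower (2.59%) and 12 higher (5.17%). The median changes were 0.03 for A, 0.09 for C, -0.02 for G and 0.00 for U. By length, 1 of 80 miRNAs of up to 20 bases was lower and 7 higher, and of 119 with 23 bases 9 were lower and 5 higher. GC content correlated with the change at a Spearman rho of 0.01 over the 777 miRNAs, which share their libraries. Calls were scarce at low levels, with 9 higher and 8 lower of 457 miRNAs under a mean log2 CPM of 3, against 17 and 14 of 198 between 3 and 6.

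USB1 KO over Control cells without the hairpin, which share no library with the 6, gave 17 higher calls (1.93%) and 28 lower (3.18%), 5.11% of 881 in all. Both comparisons called 15 miRNAs, 11 higher and 4 lower, with the same sign for all 15. These were 18.5% of the 81 calls with PARN knockdown and 33.3% of the 45 without. Of the 81, 62 had the same sign without PARN knockdown (76.5%), against 518 of all 881 (58.8%). Over the 881 miRNAs the changes correlated with a Pearson r of 0.20 and a Spearman rho of 0.21. The median change of the 44 higher calls was 1.34 with and 0.40 without PARN knockdown, and that of the 37 lower calls was -1.14 and -0.34. The calls were selected on the first of these values, so no difference is read from the medians.

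The 15 shared miRNAs, several of them outside the naming rule and named after their values were seen, included miR-218-5p (0.73 without the hairpin), miR-9-5p (2.06), miR-9-3p (2.43), miR-181b-5p (0.70), miR-1257 (2.14), miR-551a (1.38) and miR-3681-5p (1.70) among those that rose. miR-652-3p rose as well, at 348, 428 and 439 CPM in USB1 KO_shPARN against 198, 257 and 239 CPM in Control_shPARN (0.81, SE 0.17, edgeR adjusted p = 0.0101), and by 0.78 without the hairpin, and its call under PARN knockdown held without any 1 of the 6 libraries. Shared falls were miR-139-5p (-1.02 without the hairpin), miR-450b-5p (-0.98), miR-6842-3p (-1.08 with and -1.10 without) and the low miR-7851-3p (-1.15 and -1.11). miR-6842-3p lost its call under PARN knockdown without USB1 KO_shPARN library 1 (0.0542) or 2 (0.0523) or Control_shPARN library 3 (0.0521), and miR-7851-3p without USB1 KO_shPARN library 1 (0.0568) or 2 (0.0718) or Control_shPARN library 1 (0.0778) or 2 (0.0791). miR-584-5p, the only call whose libraries overlapped, stood at 42.1, 57.5 and 135 CPM in USB1 KO_shPARN and 21.8, 25.5 and 43.9 CPM in Control_shPARN (1.36, adjusted p = 0.0433) and changed by 3.05 without the hairpin. Under PARN knockdown it kept its call without only 2 of the 6 libraries, USB1 KO_shPARN library 1 and Control_shPARN library 3, the other p being 0.0509 to 0.197, and its change was 0.68 without USB1 KO_shPARN library 3. miR-3689a-5p (1.45) and miR-3689b-5p (1.38), the other 2, have 1 sequence and count as 1 observation. miR-3689e has that sequence as well and was not called under PARN knockdown (1.26, edgeR adjusted p = 0.0606). The call of miR-3689a-5p held without any 1 of the 6 libraries. The call of miR-3689b-5p (adjusted p = 0.0466) held only without Control_shPARN library 3, where its change was 2.12, with p of 0.0647 to 0.199 without the others.

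**Figure D5:**
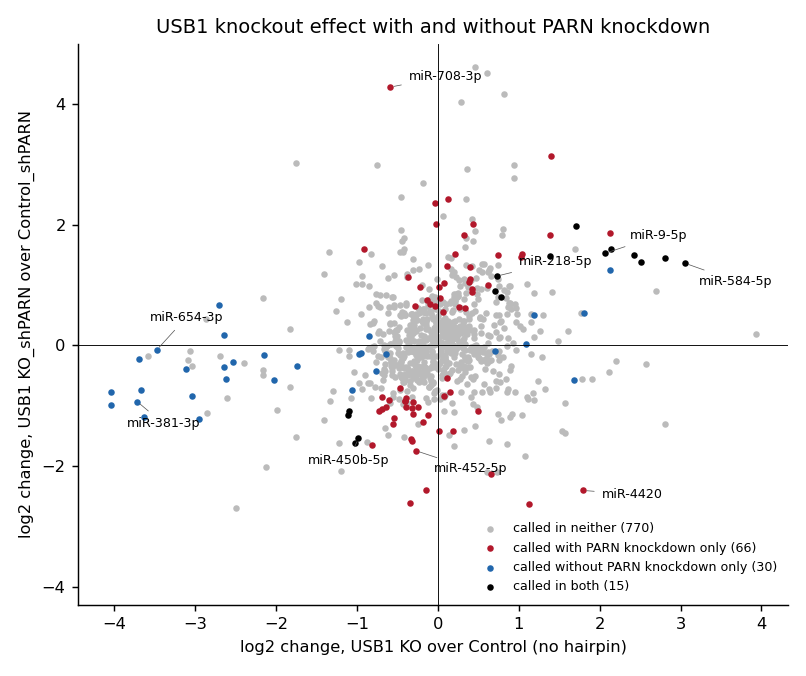
Each point is 1 of 881 miRNAs, with the log2 change of USB1 KO over Control without a hairpin on the horizontal axis and of USB1 KO_shPARN over Control_shPARN on the vertical axis. The 15 miRNAs called in both (black) lie in the upper right or lower left, while 66 were called with PARN knockdown alone (red) and 30 without it alone (blue).

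The test of the difference between the 2 knockout effects, an interaction term over the 12 libraries, called 16 miRNAs (1.82%), 12 with a higher effect under PARN knockdown (1.36%) and 4 with a lower one (0.454%). These calls lay close to the threshold, and leaving out 1 of the 12 libraries gave 0 calls by edgeR in 7 of 12 cases, with 130 to 164 miRNAs at an unadjusted p under 0.05, so they are weak. With the replicate number as a block the count was 10, of which 6 were among the 16, namely miR-654-3p, miR-493-3p, miR-452-3p, miR-135b-5p, miR-708-3p and miR-4420. The other 10 of the 16, with miR-3158-3p, miR-147b-3p and miR-381-3p among them, had adjusted p of 0.0694 to 0.130 under the block. That block also used the numbers of the hairpin-free USB1 KO libraries. A block in the PARN knockdown groups alone, chosen after seeing the data, gave 22 interaction calls, 15 of them among the 16. The interaction calls took different forms across the 4 groups. For miR-3158-3p the USB1 KO_shPARN libraries were the high ones, at 835 to 1258 CPM, with 383 to 437 CPM in Control_shPARN, 337 to 489.7 CPM in USB1 KO and 336 to 421 CPM in Control. miR-147b-3p had the same form, at 36.9 to 44.9 CPM, against 13.002 to 15.6, 12.1 to 17.0 and 9.17 to 14.3 CPM. For miR-452-3p the Control_shPARN libraries were the high ones, at 425 to 556 CPM, with 146 to 206 CPM in USB1 KO_shPARN, 130.1 to 212 CPM in USB1 KO and 214 to 250.2 CPM in Control. Likewise miR-135b-5p stood at 72.6 to 99.99 CPM in USB1 KO_shPARN, 200.2 to 311 CPM in Control_shPARN, 73.8 to 98.3 CPM in USB1 KO and 103 to 126 CPM in Control.

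The 14q32 imprinted cluster is a large group of miRNAs on chromosome 14 expressed from the maternal allele. Of its 32 listed members 19 were tested, and under PARN knockdown 0 were called by edgeR, with 2 at an unadjusted p under 0.05, 1 called by DESeq2 and a median of -0.39. That median was -1.17 without USB1 KO_shPARN library 1 and -0.11 without library 3. Without the hairpin 14 of the 19 were called lower, with a median of -2.86, and the interaction was called for 6. miR-381-3p stood at 146, 107 and 41.3 CPM in USB1 KO_shPARN and 199, 221 and 141 CPM in Control_shPARN (-0.93, adjusted p = 0.133), while USB1 KO had 12.4 to 19.9 CPM and Control 182 to 261 CPM. miR-654-3p, with the smallest interaction p, stood at 17.3, 14.9 and 6.44 CPM in USB1 KO_shPARN and 13.7, 15.4 and 11.5 CPM in Control_shPARN (-0.07, adjusted p = 0.914), while USB1 KO had 1.08 to 2.91 CPM and Control 16.6 to 21.6 CPM. In both, the low group was USB1 KO without the hairpin. Library 3 was the lowest of the USB1 KO_shPARN libraries for both.

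miR-708-3p was near the limit of detection, with 15, 11 and 12 counts in USB1 KO_shPARN and 1, 0 and 1 in Control_shPARN. The ratio of the scaled counts was 23.6, with an exact 95% interval of 6.09 to 202 that covers counting error only. It was called by edgeR (adjusted p = 0.0027), while DESeq2 gave it no adjusted p, and the call held without any 1 of the 6 libraries. It is named after its values were seen. In the hairpin-free groups it stood at 0.394 to 0.971 CPM in USB1 KO and 0.854 to 1.20 CPM in Control.

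Some miRNAs were listed in only 1 of the 2 tables, each of which holds miRNAs seen at least 1 time in its first library. The USB1 KO_shPARN table alone listed 183, led by miR-6089 with 5, 42 and 17 counts, and 1 of them had a mean over 1 CPM. The Control_shPARN table alone listed 255, led by miR-3141 with 4, 87 and 264 counts, and 4 had a mean over 1 CPM. Their counts in the other group are not known beyond its first library, so no comparison was made.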

How the data were processed

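Small RNA of K562 cells was sequenced from total RNA, 3 libraries in each of 4 groups. The authors trimmed reads with cutadapt 2.5, aligned them to miRBase mature sequences with Bowtie2 2.2.9 and SAMtools 1.3.1, and deposited raw counts per mature miRNA arm, with no normalization, in 1 table per group. Adaptor entries (0.0208 to 0.0360% of the counts in the 6 libraries) were left out, and 0 columns were left unused.

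Counts were scaled by TMM and fitted with edgeR 4.0.16 (R 4.3.3) by its robust quasi-likelihood test over the 4 groups, after a filter on a minimum count of 10 and a total of 15, with Benjamini-Hochberg adjustment over the 881 miRNAs. Levels are CPM. The test was tried on simulated counts drawn independently for each library. That simulation held no outlying library and no deviation shared by same-numbered libraries, so it does not cover these features of the data. Members, lists and tests were chosen with earlier results of these data known. Named miRNAs are the study's own and the other strand of each, the 12 largest non-overlapping calls each way at a mean log2 CPM of at least 3 with their other arms, the 10 most abundant, up to 4 per list, up to 5 listed in 1 table and up to 5 interaction calls each way, plus 22 outside the rule chosen after their values were seen.

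No label pairs the libraries of the 2 PARN knockdown groups. In the data, same-numbered libraries deviated together (r of 0.344, 0.164 and 0.219, against -0.24 to 0.03 for other numbers). Total counts also fell from library 1 to library 3 in both groups, and whether the libraries are pairs was not tested. The main fit held no block. The block also used the numbers of the hairpin-free USB1 KO libraries. Their same-number r was -0.009, 0.016 and 0.024 with USB1 KO_shPARN and 0.129, -0.036 and 0.176 with Control_shPARN. The columns of the hairpin-free Control table were matched to their group only, so Control libraries carry no number and stayed outside the block. Alternatives were DESeq2 1.42.0, other scalings and filters, a replicate block, thinning, the 6 libraries alone, and leaving out each library. Intervals cover counting error only.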

Additional observations from a re-analysis of the deposited data

Results flagged for a closer look

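For 16 miRNAs the knockout effect differed with PARN knockdown by the interaction term of the edgeR fit, and each value below is the log2 effect of USB1 knockout with PARN knockdown minus that without it. Of the 12 fits that leave out 1 library, 7 gave 0 calls, with 130 to 164 at an unadjusted p under 0.05. With the replicate number as a block 6 of the 16 were called, miR-654-3p, miR-493-3p, miR-452-3p, miR-135b-5p, miR-708-3p and miR-4420, and the other 10 had adjusted p of 0.0694 to 0.130. With a block in the PARN knockdown groups alone, chosen after seeing the data, 15 of the 16 were called.

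Of these, 6 lie in the 14q32 cluster, where USB1 KO without the hairpin was the low group. The differences were 3.40 for miR-654-3p (adjusted p = 0.0164), 2.78 for miR-381-3p, 2.72 for miR-379-5p and 2.82 for miR-493-3p (adjusted p = 0.0335 each), and 3.36 for miR-323a-3p and 2.27 for miR-127-3p (adjusted p = 0.04996 each).

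Another 2 are the miR-452-3p difference of -1.27 and the miR-135b-5p difference of -1.22, with Control_shPARN as the high group, and 3 are miR-3158-3p at 1.21, miR-147b-3p at 1.304 and miR-151a-3p at 0.93 (adjusted p = 0.04996 each). For miR-4455 the difference was 2.40 (adjusted p = 0.04996), with 10.4, 6.84 and 6.05 CPM in USB1 KO_shPARN against 1.78, 1.02 and 1.68 CPM in Control_shPARN.

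The other 4 were low. miR-4455 and miR-323a-3p, given above, also lay under a mean log2 CPM of 3, at 1.86 and 1.99. miR-708-3p had a difference of 4.87 and miR-4420 of -4.20 (adjusted p = 0.0335 each), and miR-589-3p had -2.79 and miR-607 had 2.51 (adjusted p = 0.04996 each). miR-4420 stood at 0.808, 0.855 and 0.258 CPM in USB1 KO_shPARN and 5.09, 1.94 and 3.36 CPM in Control_shPARN, and at 1.94 to 3.45 CPM in USB1 KO and 0.285 to 1.43 CPM in Control. In the comparison of USB1 KO_shPARN with Control_shPARN itself, the edgeR call of miR-4455 held without any 1 of the 6 libraries. That of miR-4420 was lost without Control_shPARN library 1 (adjusted p = 0.0843), that of miR-589-3p without USB1 KO_shPARN library 1 (0.0504) or Control_shPARN library 2 (0.0647), and that of miR-607 without USB1 KO_shPARN library 1 (0.0669) or 2 (0.0692) or Control_shPARN library 2 (0.0807) or 3 (0.067).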

How the results depend on the processing

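Against 81 calls, DESeq2 called 129 and the fit of the 6 libraries alone 49, and leaving out 1 of the 12 libraries gave 38 to 110. No call of the 81 changed sign in any of the 23 alternatives. DESeq2 called 76 of the 81 and gave no adjusted p for the other 5. Of 59 named calls 27 passed the threshold under every alternative that gave a value. With the replicate block 94 were called, 79 of them among the 81, and of the named miRNAs, beside the changes given above, miR-199b-3p was called (adjusted p = 0.0367); it changed no other named call. When every library was thinned to 1530929 counts, 74 were called. Against 16 interaction calls there were 37 with DESeq2, 7 with RLE size factors, 7 with library totals, 1 when 3 libraries had to reach 10 CPM, 10 with the replicate block and 4 after thinning, and leaving out 1 library gave 0 to 27. The median of the mirtrons was -0.02 and became 0.06 with library totals. Depth limits miRNAs under a mean log2 CPM of 3, of which 17 of 457 were called. The block in the PARN knockdown groups alone gave 103 calls and 22 interaction calls, and the block and DESeq2 on the 6 libraries gave 94 and 90 calls. These fits were chosen after seeing the data. So were the fits of USB1 KO_shPARN against Control_shPARN without 1 hairpin-free library and the list medians without 1 library.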

Other observations

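Calls were unevenly spread over chromosomes, as counted after the values were seen. The count covers only the 777 tested miRNAs with a RefSeq sequence and leaves out 104 without one. miR-542-3p, called lower and described above with its X chromosome cluster, is among those left out. Of 61 counted miRNAs placed on the X chromosome alone, 9 were lower in USB1 KO_shPARN (14.8%) and 3 higher (4.92%). On autosomes 24 were lower (3.38%) and 37 higher (5.21%) of 710. The 9 were miR-452-5p, miR-452-3p, miR-224-5p, miR-450b-5p, miR-450a-5p, miR-424-5p, miR-424-3p, miR-767-5p and miR-223-3p, which come from few precursors and are not independent. miR-767-5p stood at 43.5, 55.5 and 54.9 CPM in USB1 KO_shPARN and 107, 88.3 and 116 CPM in Control_shPARN (-1.01, edgeR adjusted p = 0.0265), a call lost without USB1 KO_shPARN library 1 (0.0632) or Control_shPARN library 1 (0.0526) or 3 (0.067).

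Among miRNAs outside the lists, miR-625-3p, chosen after its values were seen, stood at 115, 116 and 94.5 CPM in USB1 KO_shPARN and 197, 219.8 and 191 CPM in Control_shPARN (-0.90, edgeR adjusted p = 0.014), and its call held without any 1 of the 6 libraries.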
